A study of Mus musculus with 6 samples.

Results

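The 10 genes described here encode cytokines that are known to sensitize or calm nociceptors, the neurons of the dorsal root ganglion (DRG) that detect painful stimuli. They are *Il1a*, *Il1b*, *Il18*, *Il33*, *Tnf*, *Ifng*, *Il6*, *Lif*, *Il10*, and *Tgfb1*. They were picked by symbol, with earlier results of these data known, and each matched 1 of the 48440 rows of the count table. RNA sequencing had been done on the microinjected unilateral L3/4 DRGs of male wild-type mice. The 3 control libraries came from DRGs injected with AAV5-*Gfp*, an adeno-associated virus of serotype 5 that expresses green fluorescent protein. The other 3 came from DRGs that received a mixture of 2 such viruses (AAV5-*V1+V2*), one for each transcript variant of *NIS-lncRNA*, a long noncoding RNA raised by nerve injury. The study asked which genes of the DRG change when this RNA is overexpressed. The deposited text places tissue collection at 5 weeks and the comparison at 4 weeks after microinjection. Both groups carried a virus and an injection, but each received its own virus preparation, and the RNA and the preparation cannot be told apart. The *NIS-lncRNA* transcripts themselves were not analysed here. Each library held between 32025612 and 34764282 counts. The labels do not say whether a library was 1 mouse or a pool, so p-values measure the spread between these libraries, which may be technical. Values given per library follow the order of the labels, replicates 1, 2, and 3 of each group.

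Cytokines of this kind reach nociceptors from macrophages, T cells, glia, and Schwann cells. Interleukin 1 (IL-1) and tumor necrosis factor act through receptors that activate NF-κB and p38 kinase, and they lower the firing threshold of sensory neurons. Interleukin 6 and leukemia inhibitory factor signal through the shared receptor subunit gp130, interferon-γ activates macrophages, and interleukin 10 dampens the production of other cytokines.

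Of the 10 cytokine genes, 7 had enough counts to be tested, and 5 of these rose with AAV5-*V1+V2*, namely *Il1a*, *Il1b*, *Tnf*, *Tgfb1*, and *Il33*. The threshold was a Benjamini-Hochberg adjusted p of 0.05 in edgeR, at which 10.1% of all 18593 genes tested were higher and 5.27% were lower. None of the 7 fell (0 in edgeR, also at an unadjusted p, 0 in DESeq2, and 0 in limma-voom). DESeq2 called the same 5 cytokines, where 12.9% of all genes were higher, and limma-voom called 4 of them, where 7.64% were. The median log2 fold change of the 7 cytokines was 1.54, against -0.000298 over all genes tested. *Il18* and *Lif* did not pass (6 of the 7 were higher at an unadjusted p, as were 19.2% of all genes), and *Il6*, *Il10*, and *Ifng* were below the filter on low counts. A tested gene needed about 10 counts in 3 libraries, so a cytokine near 0 with AAV5-*Gfp* could enter the test only through its counts with AAV5-*V1+V2*. *Il1a*, at 1, 5, and 2 counts with AAV5-*Gfp*, was such a gene. Its place among the 5 and in the median of 1.54 is therefore not independent of the filter. The same holds for low genes of the lists below.

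The counts were low. Of the 60 values, 19 were at 10 counts or fewer, and only *Il33* exceeded 300 counts in every library. Compared per kilobase of exon, the level with AAV5-*Gfp* was highest for *Il33*, at 3.84 ± 0.679 CPM per kilobase (SD, n = 3; CPM is the count scaled to the TMM-normalized library size). It was followed by *Il18* at 2.26 ± 0.451, *Tgfb1* at 0.719 ± 0.129, *Il1b* at 0.375 ± 0.0807, and *Tnf* at 0.200 ± 0.0366 CPM per kilobase. Each of the first 4 stood apart from the next gene in all 3 libraries. From *Tnf* down through *Lif*, *Il10*, *Il1a*, *Il6*, and *Ifng*, the libraries of each neighboring pair overlapped. With AAV5-*V1+V2*, *Il1b* took the 2nd place at 3.13 ± 2.51 CPM per kilobase, behind *Il33* at 6.19 ± 0.772, and the libraries of every neighboring pair overlapped.

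**Figure D1:**
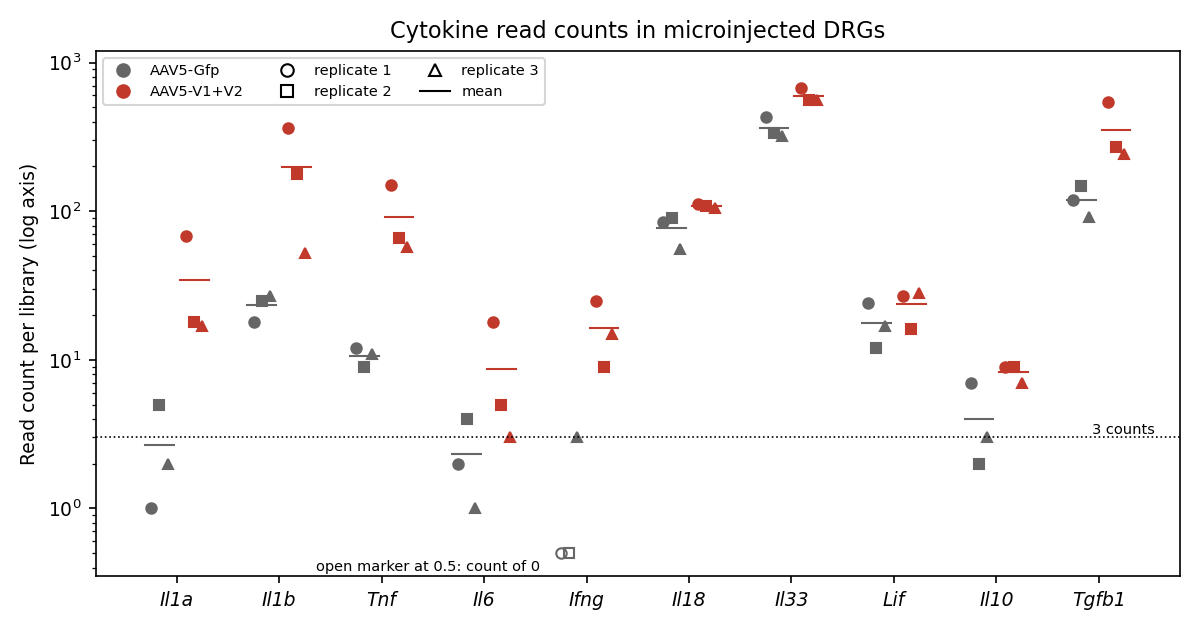
Read counts of the 10 cytokine genes in each library, on a log axis, with AAV5-Gfp in gray and AAV5-V1+V2 in red, a marker shape for each replicate number, and a line at the mean of 3 libraries where none is at 0. Il1a, Il1b, Tnf, Ifng, Il18, Il33, and Tgfb1 show all 3 red points above all 3 gray ones, whereas Il6, Lif, and Il10 overlap, and Ifng is at 0 in 2 AAV5-Gfp libraries (open markers at 0.5). The dotted line marks 3 counts.

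*Il1a* encodes IL-1α, an alarmin released by damaged cells and a ligand of the IL-1 receptor. It was counted at 1, 5, and 2 reads in the AAV5-*Gfp* libraries and at 68, 18, and 17 reads in the AAV5-*V1+V2* libraries. The groups did not overlap, and AAV5-*V1+V2* replicate 1 was far above the other two. The mean was 0.0798 ± 0.0583 CPM with AAV5-*Gfp* and 1.03 ± 0.894 CPM with the mixture (SD, n = 3 each). This is a log2 fold change of 3.61 (standard error 0.82, 95% confidence interval 1.68 to 5.53, adjusted p = 0.0317 by the quasi-likelihood test of edgeR). *Il1a* passed the filter only through its AAV5-*V1+V2* counts, so this call is not independent of the filter. From the pooled counts alone, 8 against 103, the ratio was 13.1, with an exact 95% interval of 6.40 to 31.1 that covers counting error only. The gene lies on chromosome 2 of GRCm38, on the minus strand from 129299610 to 129309972, with 7 exons, and *Gm14023* overlaps it on the opposite strand.

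*Il1b* encodes IL-1β, which is made as a precursor and cleaved by caspase-1. Its counts were 18, 25, and 27 in the AAV5-*Gfp* libraries and 363, 179, and 52 in the AAV5-*V1+V2* libraries. All AAV5-*V1+V2* libraries were above all AAV5-*Gfp* libraries, but they differed among themselves, with replicate 1 at the top and replicate 3 far below it. The mean was 0.715 ± 0.154 CPM in the AAV5-*Gfp* libraries and 5.98 ± 4.79 CPM in the AAV5-*V1+V2* libraries (SD, n = 3 each), a log2 fold change of 3.06 (standard error 0.68, 95% confidence interval 1.47 to 4.65, adjusted p = 0.0296 by edgeR's test). By limma-voom, its adjusted p was 0.102 at a log2 fold change of 2.63. *Il1b* lies 54598 bases from *Il1a* on the same strand of chromosome 2, from 129364570 to 129371139, with 7 exons, and the antisense transcript *Il1bos* overlaps it.

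*Tnf* encodes tumor necrosis factor, a product of activated macrophages and T cells. It had 12, 9, and 11 counts in the AAV5-*Gfp* libraries and 150, 66, and 57 in the AAV5-*V1+V2* libraries. Every AAV5-*V1+V2* library thus held over 4 times the highest AAV5-*Gfp* count. In normalized counts it rose from 0.328 ± 0.0599 CPM to 2.73 ± 1.59 CPM (SD, n = 3 each). Its log2 fold change of 3.05 had the smallest adjusted p of the cytokines (standard error 0.46, 95% confidence interval 1.96 to 4.13, adjusted p = 0.0144 by edgeR's test). The gene has 4 exons on the minus strand of chromosome 17, from 35199381 to 35202007, and *Lta*, another member of the family, lies 1158 bases away.

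The RefSeq promoter table (GRCm38.p6) held 9 of the 10 genes, without *Il10*. The following lines hold the 250 bases before the start site of *Il1a*, *Il1b*, and *Tnf*, the tested cytokines with the largest rise, and of *Tgfb1*, for comparison. Capitals mark matches, on either strand, to a TATA box (TATAAA), to AP-1 (TGANTCA), to the interferon-γ activated site (TTCNNNGAA), or to the κB consensus. No matches overlap in these 4 windows.
*Il1a*, chr2:129309973-129310222, minus strand: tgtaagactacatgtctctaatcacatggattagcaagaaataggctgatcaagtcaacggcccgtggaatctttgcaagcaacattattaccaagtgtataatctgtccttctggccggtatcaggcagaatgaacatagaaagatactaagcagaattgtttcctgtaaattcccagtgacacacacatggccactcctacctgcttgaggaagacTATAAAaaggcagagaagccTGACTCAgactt
*Il1b*, chr2:129371140-129371389, minus strand: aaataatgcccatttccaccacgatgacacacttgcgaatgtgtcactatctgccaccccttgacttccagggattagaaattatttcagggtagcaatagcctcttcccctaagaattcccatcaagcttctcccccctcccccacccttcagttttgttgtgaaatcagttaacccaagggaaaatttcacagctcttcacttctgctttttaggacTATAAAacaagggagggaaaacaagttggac
*Tnf*, chr17:35202008-35202257, minus strand: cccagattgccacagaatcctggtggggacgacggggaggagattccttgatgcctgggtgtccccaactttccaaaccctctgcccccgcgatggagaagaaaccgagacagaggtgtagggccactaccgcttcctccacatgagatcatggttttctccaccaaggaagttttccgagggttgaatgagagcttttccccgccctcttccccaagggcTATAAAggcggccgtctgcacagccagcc
*Tgfb1*, chr7:25686752-25687001, plus strand: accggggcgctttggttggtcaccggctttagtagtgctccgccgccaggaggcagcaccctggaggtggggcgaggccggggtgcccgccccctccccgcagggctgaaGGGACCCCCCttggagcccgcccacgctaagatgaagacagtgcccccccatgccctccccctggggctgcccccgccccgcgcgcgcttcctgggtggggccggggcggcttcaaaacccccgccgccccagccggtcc

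In the windows of *Il1a*, *Il1b*, and *Tnf*, a TATA box began 32, 31, and 29 bases before the start site. *Il1a* also had an AP-1 match from 12 to 6 bases before it, and *Tgfb1* had no TATA box but a κB match from 140 to 131 bases before its start. *Ifng* and the downstream start site of *Il33* held a TATA box 30 and 29 bases before the start. A TATA box on the strand of the gene, within 40 to 21 bases before the start, was found in 1.87% of 32851 promoters, a window chosen after these matches were seen. Anywhere in the 250 bases and on either strand, the TATA box was found in 12.4% of promoters, AP-1 in 6.75%, the interferon-γ activated site in 7.02%, and κB in 7.25%. *Il6* and *Lif*, which were not called, each held a κB and an AP-1 match. These matches describe letters in the sequence and not binding.

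*Ifng*, which encodes the interferon of T and natural killer cells, had 0, 0, and 3 counts in the AAV5-*Gfp* libraries and 25, 9, and 15 in the AAV5-*V1+V2* libraries. The groups did not overlap, but the gene was below the filter because 1 of these libraries had under 10 counts. The pooled counts were 3 and 49, a ratio of 16.6 with an exact 95% interval of 5.36 to 83.2 for counting error only. The gene has 4 exons on the plus strand of chromosome 10, from 118441046 to 118445892, where *Gm49751* overlaps it. Fitted without a filter, its adjusted p was 0.0180 by edgeR's test, where 6.87% of 30623 genes were higher and 3.23% lower. The log2 fold change in that fit was 3.83. When replicate 1 of AAV5-*Gfp* was left out it was 3.31 and the call was lost (adjusted p = 0.0627 by edgeR), and when replicate 2 was left out it was 3.26 (0.107). Replicate 3 held the 3 control reads on which the ratio of 16.6 rests. Without it the controls were at 0, and the fitted value of 7.04 (adjusted p = 0.0356 by edgeR) depends on the prior count and sets no bound.

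Among the other members of the IL-1 family, *Il33* encodes an alarmin stored in the nuclei of stromal cells. Its counts were 430, 336, and 319 in the AAV5-*Gfp* libraries and 672, 557, and 563 in the AAV5-*V1+V2* libraries. The groups were separate and the libraries of each lay close together. The rise from 11.1 ± 1.96 to 17.9 ± 2.23 CPM (SD, n = 3 each) was the smallest that passed, with a log2 fold change of 0.69 (standard error 0.15, 95% confidence interval 0.34 to 1.04, adjusted p = 0.0281 by edgeR's test). It has 8 exons on the plus strand of chromosome 19, from 29925114 to 29960718. *Il18*, an inducer of interferon-γ that also needs caspase-1, had 84, 90, and 56 counts in the AAV5-*Gfp* libraries and 111, 108, and 105 in the AAV5-*V1+V2* libraries. Here too the groups did not overlap, yet the log2 fold change of 0.47 did not pass (95% confidence interval 0.03 to 0.90, adjusted p = 0.123 by edgeR's test). *Il18* has 6 exons on the plus strand of chromosome 9, from 50554827 to 50581840, and *Bco2* and *Tex12* overlap it on the other strand, so that its counts may include their reads. Of all genes tested, 23.4% had every AAV5-*V1+V2* library above every AAV5-*Gfp* library, and 22.0% had every one below, so that such separation was common in this table.

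*Il6* and *Lif* belong to the gp130 family. *Il6*, which sensitizes nociceptors together with its soluble receptor, was counted at 2, 4, and 1 reads in the AAV5-*Gfp* libraries and at 18, 5, and 3 in the AAV5-*V1+V2* libraries. Replicate 1 alone stood out, and the groups overlapped. The ratio of pooled counts was 3.77 (exact 95% interval 1.60 to 10.3, counting error only), and the fit without a filter gave a log2 fold change of 1.82 (95% confidence interval 0.04 to 3.59, adjusted p = 0.204 by edgeR). Without AAV5-*V1+V2* replicate 1 it was 0.72. *Lif*, a factor of injured nerve, had 24, 12, and 17 counts in the AAV5-*Gfp* libraries and 27, 16, and 28 in the AAV5-*V1+V2* libraries. The groups overlapped, and the log2 fold change was 0.38 (95% confidence interval -0.46 to 1.21, adjusted p = 0.483 by edgeR's test), an interval that includes a 2-fold rise. *Il6* lies on chromosome 5 from 30013114 to 30019981 with 5 exons, and *Lif* on chromosome 11 from 4257557 to 4272514 with 4 exons, both on the plus strand.

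Of the cytokines that calm inflammation, *Tgfb1* rose and *Il10* had fewer than 10 counts in every library. *Tgfb1* encodes transforming growth factor β1, a regulator of immune cells and of matrix deposition. It had 119, 147, and 92 counts in the AAV5-*Gfp* libraries and 540, 270, and 244 in the AAV5-*V1+V2* libraries. The lowest AAV5-*V1+V2* library was above the highest control, and replicate 1 was again the highest. Its mean rose from 3.63 ± 0.649 to 10.5 ± 5.11 CPM (SD, n = 3 each), with a log2 fold change of 1.54 (standard error 0.33, 95% confidence interval 0.76 to 2.31, adjusted p = 0.0278 by edgeR's test). The gene has 7 exons on the plus strand of chromosome 7, from 25687002 to 25705077. *Il10*, with 5 exons on the plus strand of chromosome 1 from 131019845 to 131024974, had 7, 2, and 3 counts in the AAV5-*Gfp* libraries and 9, 9, and 7 in the AAV5-*V1+V2* libraries. Its pooled ratio of 2.12 had an exact 95% interval of 1.03 to 4.62 (counting error only), and without a filter its adjusted p was 0.324 by edgeR. The difference in *Il10* was not detectable at this depth once the spread between libraries was taken into account. Per *Tnf* count there were 0.583, 0.222, and 0.273 counts of *Il10* in the AAV5-*Gfp* libraries and 0.0600, 0.136, and 0.123 in the AAV5-*V1+V2* libraries (exact two-sided permutation test, p = 0.1). With 3 libraries against 3, 0.1 is the smallest p this test allows. The direction of this ratio follows from the log2 fold changes, 3.05 for *Tnf* and 1.00 for *Il10* without a filter. This p is therefore no separate evidence.

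All 10 cytokine genes had their highest AAV5-*V1+V2* value, in normalized counts, in replicate 1. The same held for 92.3% of the 1872 genes that were higher in the whole table. Leaving this library out moved the log2 fold change of *Il1a* from 3.61 to 2.62, that of *Il1b* from 3.06 to 2.27, that of *Tnf* to 2.47, and that of *Tgfb1* to 1.07, and the same 5 cytokines were called (9.85% of all genes). Without AAV5-*Gfp* replicate 2, that of *Il1a* was 4.34. The calls depended more on the control libraries. Leaving out AAV5-*Gfp* replicate 1 left 1 cytokine called, *Il33* (adjusted p = 0.0480 by edgeR's test), and leaving out replicate 2 or replicate 3 left 0. In these 3 fits only 1.35%, 0.0634%, and 0.0792% of all genes were higher. At an unadjusted p under 0.05, 7, 7, and 6 of the 8 cytokines that then passed the filter were higher in edgeR, as were 16.3%, 15.4%, and 15.5% of all genes. Without AAV5-*V1+V2* replicate 2, where 5.4% of all genes were higher, *Il1b* (adjusted p = 0.0621) and *Il33* (0.0602) were no longer called by edgeR. *Ifng* then passed the filter and was called. These losses varied with the filter on low counts. Fitted without it, leaving out AAV5-*Gfp* replicate 1, 2, or 3 gave 4 (*Il1b*, *Il33*, *Tgfb1*, *Tnf*), 0, and 2 (*Ifng*, *Tnf*) higher cytokines. Without AAV5-*V1+V2* replicate 2, that fit called 6, with *Il1b* and *Il33* among them. Shares of all genes in these unfiltered fits are not given here.

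**Figure D2:**
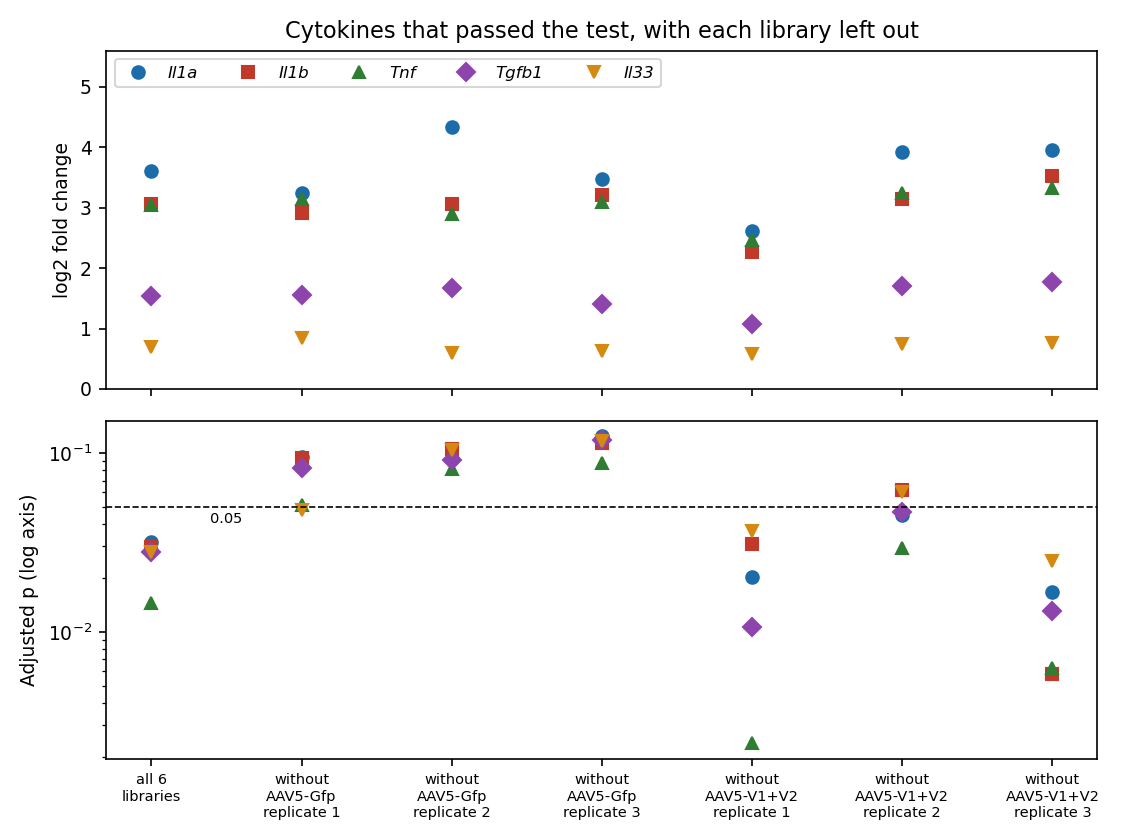
Log2 fold change (top) and adjusted p on a log axis (bottom) of the 5 cytokines that passed, with all 6 libraries and with each library left out. Values are from edgeR with the filter on low counts. Fold changes stay above 0 in every fit, whereas the adjusted p of Tnf, Il1a, Il1b, and Tgfb1 is above 0.05 (dashed line) without any 1 of the 3 AAV5-Gfp libraries.

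All 16 receptor genes of these cytokines were tested, and 11 rose, 0 fell, and 5 did not pass by edgeR's test (0 fell in DESeq2 and in limma-voom, and 1, *Lifr*, was lower at an unadjusted p under 0.05). Over all genes tested, edgeR called 10.1% higher and 5.27% lower. The median log2 fold change of the 16 receptor genes was 0.55. *Il18r1* and *Il18rap*, the subunits of the interleukin 18 receptor, had log2 fold changes of 2.76 (standard error 0.46) and 2.25 (standard error 0.37). *Tnfrsf1b*, the TNF receptor of immune and endothelial cells, went from 8.82 ± 1.17 to 42.1 ± 24.8 CPM (SD, n = 3 each), and *Il10ra* from 9.11 ± 0.775 to 31.8 ± 15.9 CPM. Their adjusted p-values from edgeR were 0.0165, 0.0163, 0.0176, and 0.0189. The other 7 that rose were *Tnfrsf1a* (0.52), *Il1r1* (0.40), *Tgfbr1* (0.67), *Tgfbr2* (0.58), *Ifngr1* (0.84), *Ifngr2* (0.38), and *Il6ra* (0.98), with fold changes on the log2 scale.

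The other 5 receptor genes did not pass. *Il6st*, which encodes gp130, was at 556 ± 11.1 CPM in the AAV5-*Gfp* libraries and 527 ± 38.5 CPM in the AAV5-*V1+V2* libraries (SD, n = 3 each; 95% confidence interval of the log2 fold change -0.28 to 0.13). *Il1rap*, the accessory chain for IL-1 and interleukin 33, had an interval of -0.19 to 0.16. *Lifr* was lower in all 3 AAV5-*V1+V2* libraries, at 430 ± 61.8 against 540 ± 48.3 CPM (SD, n = 3 each), with a log2 fold change of -0.33 and an adjusted p of 0.118 by edgeR's test. *Il1rl1*, the receptor of interleukin 33 (log2 fold change 0.43, adjusted p = 0.143 by edgeR), and *Il10rb* (0.29, adjusted p = 0.0673) also missed the threshold.

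Some of the genes that restrain these cytokines rose as well. Of 8 inhibitors and decoys, 4 rose, 0 fell (0 also in DESeq2 and in limma-voom, and at an unadjusted p under 0.05), and 4 did not pass. DESeq2 called 7 higher and limma-voom 3. Of all genes tested, 10.1% were higher in edgeR, 12.9% in DESeq2, and 7.64% in limma-voom. *Il1rn*, the IL-1 receptor antagonist, had 30, 21, and 26 counts in the AAV5-*Gfp* libraries and 184, 76, and 47 in the AAV5-*V1+V2* libraries (log2 fold change 1.96, standard error 0.52, adjusted p = 0.0463 by edgeR's test). There were 1.67, 0.840, and 0.963 counts of *Il1rn* per count of *Il1b* in the AAV5-*Gfp* libraries and 0.507, 0.425, and 0.904 in the AAV5-*V1+V2* libraries, which overlapped (exact permutation test, p = 0.2). *Tnfaip3*, which encodes the NF-κB inhibitor A20, had a log2 fold change of 2.18, *Nfkbia*, which encodes IκBα, of 1.19, and *Il18bp*, which binds interleukin 18 and overlaps *Numa1* on the opposite strand, of 1.12. *Socs1* (1.86, adjusted p = 0.0517 by edgeR), *Socs3* (0.97, adjusted p = 0.0552), and *Smad7* (0.61, adjusted p = 0.0639) were just outside the threshold, and the decoy receptor *Il1r2* had an interval of -0.60 to 0.48.

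**Figure D3:**
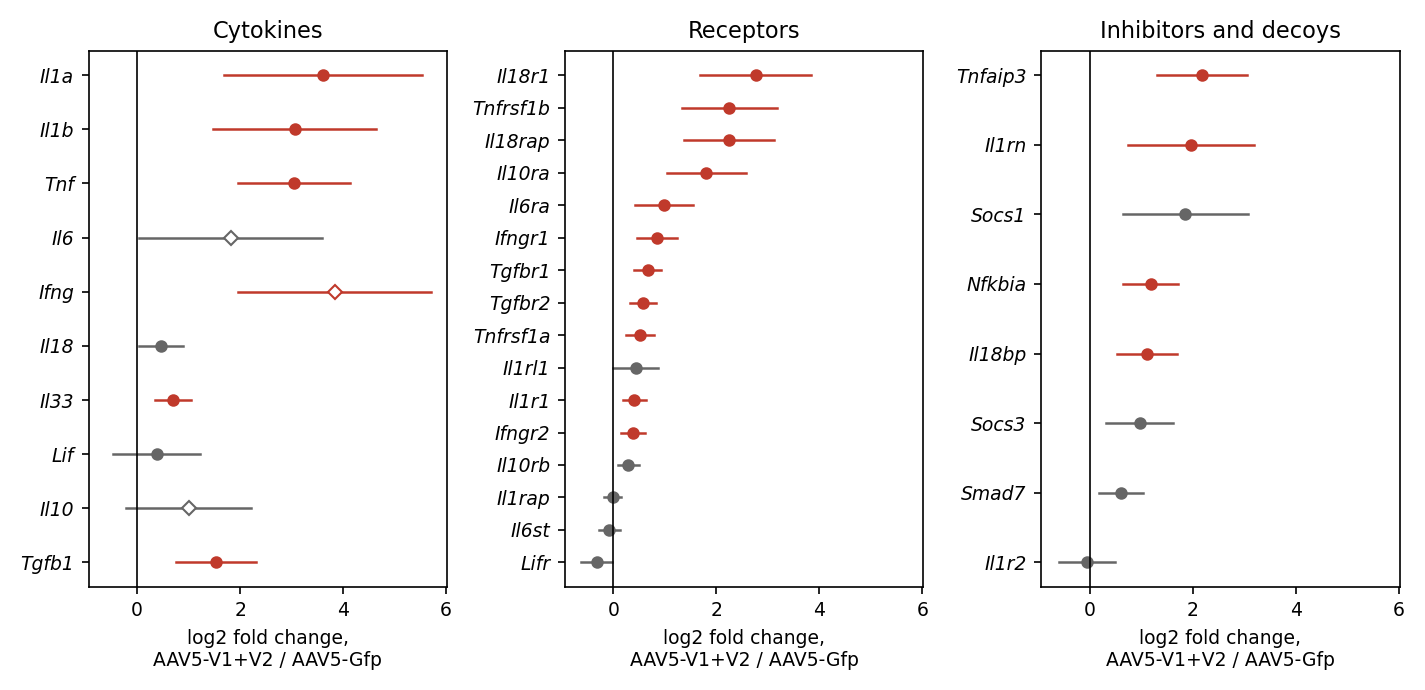
Log2 fold changes between AAV5-V1+V2 and AAV5-Gfp with 95% confidence intervals for the 10 cytokines, their 16 receptors, and 8 inhibitors and decoys, from edgeR. Red marks an adjusted p under 0.05, and open diamonds mark the 3 cytokines below the filter, taken from a fit without it. Il1a, Il1b, and Tnf lie near or above 3, whereas Il1rap, Il6st, and Il1r2 lie near 0.

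Of 15 genes for maturation and release, 8 rose and 0 fell in edgeR (0 also in DESeq2 and limma-voom, and 2 at an unadjusted p, *Itgb6* and *Ltbp3*). The 4 with the smallest p were *Aim2*, a DNA sensor of the inflammasome (log2 fold change 2.13), *Gsdmd*, the pore through which mature IL-1β leaves (1.67), *Thbs1*, an activator of latent TGF-β (0.50), and *Casp4* (1.17). Of 17 signal transducers, 5 rose in edgeR, 10 in DESeq2, and 1 in limma-voom, and 0 fell in any of these or at an unadjusted p. Over all genes tested, 10.1%, 12.9%, and 7.64% were higher by these tools, so that by limma-voom the list did not exceed the whole table. Those that rose included *Rela*, a subunit of NF-κB (log2 fold change 0.49), and *Traf2* (0.70) and *Ripk1* (0.51), which act below the TNF receptor. Of 17 response genes, 12 rose in edgeR, 13 in DESeq2, and 6 in limma-voom, and 0 fell in any of these or at an unadjusted p, with a median log2 fold change of 1.65. Among these, *Vcam1* (2.03) and *Icam1* (2.34), which hold leukocytes to the vessel wall, had adjusted p-values of 0.0139 and 0.0144 by edgeR's test. *Nos2*, the inducible nitric oxide synthase, was counted at 9, 15, and 9 reads in the AAV5-*Gfp* libraries and at 1021, 176, and 111 in the AAV5-*V1+V2* libraries. *Saa3*, an acute phase gene, had 3, 1, and 1 counts in the AAV5-*Gfp* libraries and 1126, 395, and 133 in the AAV5-*V1+V2* libraries. It passed the filter on low counts only through the AAV5-*V1+V2* libraries.

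Of 29 related cytokines, 16 could be tested, and 6 rose and 2 fell. *Lta*, the neighbor of *Tnf*, had 4, 3, and 1 counts in the AAV5-*Gfp* libraries and 32, 21, and 19 in the AAV5-*V1+V2* libraries (log2 fold change 3.08). *Ltb* (log2 fold change 3.50) and *Clcf1*, a gp130 ligand (1.25), rose as well, and so did *Il12b*, a subunit of interleukin 12, from 8, 6, and 2 to 73, 40, and 20 counts. *Lta* and *Il12b* passed the filter on low counts only through the AAV5-*V1+V2* libraries. The 2 that fell, named after their values were seen, were *Tgfb2* (log2 fold change -0.33, adjusted p = 0.0460 by edgeR's test) and *Il4* (-0.44, adjusted p = 0.0469). Neither fell with total counts as the only normalization, where 0 of the list were lower. *Il4* had 968, 1020, and 970 counts in the AAV5-*Gfp* libraries, above *Il33*, and its nearest coding gene, *Kif3a*, lies 1015 bases away. *Gm26169* and *Gm29491* overlap *Tgfb2* on the opposite strand. Whether reads of these neighbors entered the counts of *Il4* or *Tgfb2* was not tested. Over all 6 lists, 46 of 89 genes tested rose and 2 fell, against the 10.1% and 5.27% of all genes.

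Most markers of macrophages, of T and natural killer cells, and of B and plasma cells rose, whereas those of mast cells did not. Beside these counts, 10.1% of all genes tested were higher and 5.27% lower in edgeR, and 12.9% were higher in DESeq2 and 7.64% in limma-voom. Of 8 macrophage and monocyte markers, 6 rose, and their sum ranged from 108 to 143 CPM with AAV5-*Gfp* and from 203 to 367 CPM with AAV5-*V1+V2*. Of 7 T and natural killer cell markers tested, 6 rose, and the summed list ranged from 2.42 to 7.44 CPM and from 25.6 to 57.7 CPM, with *Gzmb* at 0 in 2 AAV5-*Gfp* libraries. All 6 B and plasma cell markers rose (4.88 to 11.2 against 213 to 293 CPM). Of 6 neutrophil markers 1 rose in edgeR, 5 in DESeq2, and 0 in limma-voom (100 to 112 against 143 to 287 CPM). Of 5 mast cell markers 0 rose and 0 fell by any of the tools or at an unadjusted p (90.8 to 103 against 75.4 to 91.4 CPM). Most of this sum was *Kit*, at 76.0 ± 10.2 against 65.9 ± 4.82 CPM (SD, n = 3 each). The next marker, *Cpa3*, was at 6.06 against 5.43 CPM, so the sum mainly follows *Kit*. Sensory neuron markers, which define the tissue, were abundant in all libraries but summed to 3634 to 5141 CPM with AAV5-*V1+V2*, below the 5751 to 6104 CPM with AAV5-*Gfp*, with 1 of 10, *Rbfox3*, lower by the test (log2 fold change -0.93). Of the other lists, 1 of 5 fibroblast, 1 of 4 endothelial, 0 of 9 glial, 0 of 4 erythrocyte, and 0 of 4 muscle markers rose, and 0 of these fell in edgeR, DESeq2, or limma-voom (at an unadjusted p, 1 glial and 1 endothelial marker fell). In whole ganglia, more cells of a type and more RNA per cell cannot be told apart.

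Set against the macrophage markers of the same library, the cytokines differed in direction. Per 100 counts of the 8 markers, there were 0.262, 0.182, and 0.327 counts of *Tnf* in the AAV5-*Gfp* libraries and 1.24, 0.750, and 0.819 in the AAV5-*V1+V2* libraries. The groups did not overlap, and the same held upward for *Il1a*, *Tgfb1*, and *Ifng* (exact two-sided permutation test, p = 0.1 for each of the 4, without adjustment over the 10 cytokines). *Tgfb1* moved little on this scale, from 2.77 ± 0.184 to 3.68 ± 0.717 (SD, n = 3 each). The 8 markers themselves rose unequally, with log2 fold changes from 0.05 for *Cd163* and 0.41 for *Mrc1* to 2.29 for *Cd68*. *Tgfb1*, at 1.54, rose less than *Cd68*, so the size and direction of these ratios depend on the markers summed. *Il1b* overlapped, because AAV5-*V1+V2* replicate 3 held 0.747 counts per 100, below AAV5-*Gfp* replicate 3 at 0.802. *Il18* was lower in every AAV5-*V1+V2* library, at 0.919, 1.23, and 1.51 against 1.84, 1.82, and 1.66 per 100 (exact permutation test, p = 0.1). *Il33*, *Il6*, *Il10*, and *Lif* overlapped. *Il33* per 100 counts of 5 fibroblast markers was 1.01 ± 0.191 in the AAV5-*Gfp* libraries and 1.08 ± 0.124 in the AAV5-*V1+V2* libraries (SD, n = 3 each; exact permutation test, p = 0.7), whereas per 100 counts of 4 endothelial or 9 glial markers it was higher in every AAV5-*V1+V2* library (means 15.2 against 11.6 and 0.407 against 0.260, p = 0.1 for both by the exact permutation test). Against T and natural killer cell markers, *Ifng* overlapped as well (exact permutation test, p = 1.0). Per 100 counts of that list it was at 0, 0, and 3.61 with AAV5-*Gfp* and at 1.32, 0.905, and 1.71 with AAV5-*V1+V2*. The overlap rests on the 3 reads of *Ifng* in AAV5-*Gfp* replicate 3. It therefore does not show whether *Ifng* followed these markers. With adjustment over the 10 cytokines no p could fall under 0.1, and the part of cell numbers in the rises was not tested.

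**Figure D4:**
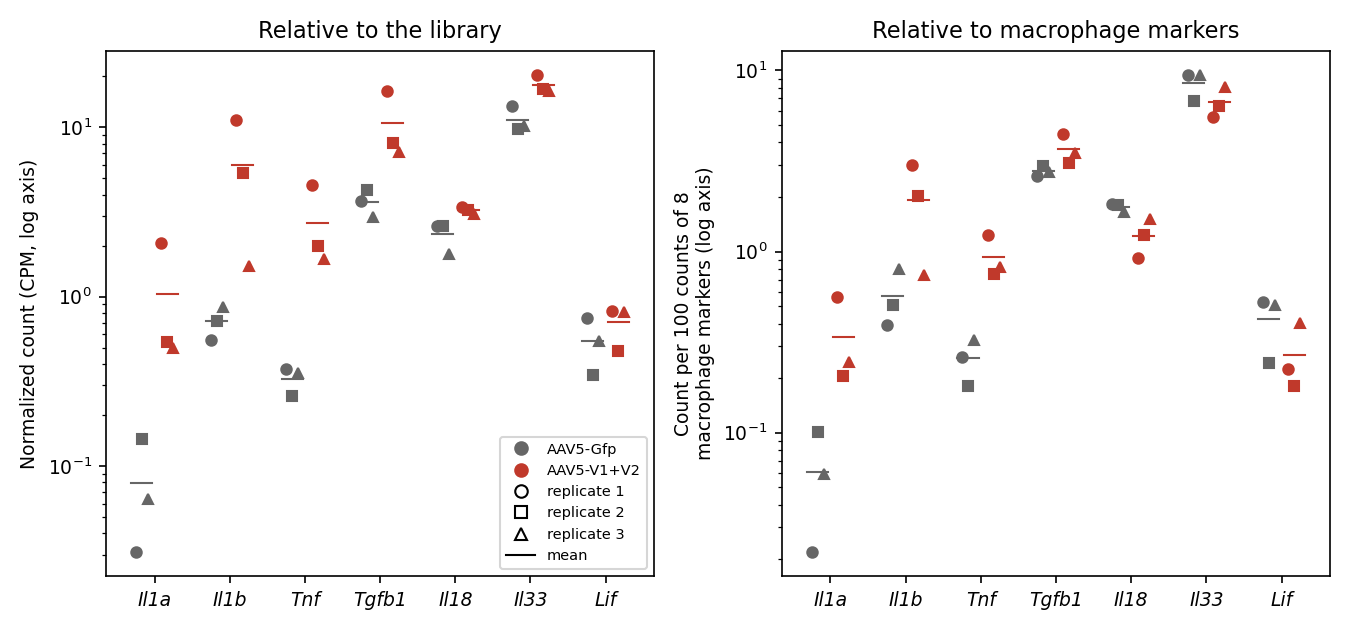
Normalized counts (CPM, left) and counts per 100 counts of 8 macrophage and monocyte markers (right) of 7 cytokines in each library, on log axes, with a line at the mean of 3 libraries. Tnf and Il1a stay separate between AAV5-Gfp (gray) and AAV5-V1+V2 (red) on both scales, Il1b overlaps on the right, and Il18 turns from higher to lower.

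The ratio of *Tnf* to *Tgfb1*, which needs no marker list, was 0.101, 0.0612, and 0.120 in the AAV5-*Gfp* libraries and 0.278, 0.244, and 0.234 in the AAV5-*V1+V2* libraries. It was thus higher and nearly equal in all AAV5-*V1+V2* libraries (exact two-sided permutation test, p = 0.1), although these differed in the level of both genes. Its direction follows from the log2 fold changes already given, 3.05 for *Tnf* and 1.54 for *Tgfb1*, so this p is no separate evidence. *Il1b* to *Tnf* overlapped, at 2.24 ± 0.664 in the AAV5-*Gfp* libraries and 2.01 ± 0.966 in the AAV5-*V1+V2* libraries (SD, n = 3 each, exact permutation test, p = 0.6). *Il1b* to *Il1a* and *Il18bp* to *Il18* overlapped too (exact permutation test, p = 0.3 for both).

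Likeness of pattern was measured by Pearson's r of log2 CPM over the 6 libraries, which share the difference between the groups and the high AAV5-*V1+V2* replicate 1. For *Tnf*, the most alike genes were *Hnrnpa2b1* and *Map4k1* (r = 1.00 and 0.999), and 1497 genes had r over 0.95. For *Tgfb1* they were *Sh3tc1* and *Katna1* (r = 1.00 and 0.999), with 1661 genes over 0.95. *Il1b* was most like *Procr* and *Kdm5d* (r = 0.999 and 0.998), *Il18* most like *Lmnb2* and *Slamf9* (r = 0.998 and 0.996), and *Il33* most like *Lat* and *Ccr6* (r = 0.997 for both). With so many genes this close, these names describe 6 points and no more.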

How the data were processed

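RNA was extracted from microinjected DRGs and made into stranded total RNA libraries, 3 per group. The deposited table of the authors holds whole-number read counts for each gene symbol, not normalized, with GRCm38/mm10 named in the submitters' processing notes. The aligner, the counting program, its use of strand, and its handling of shared reads are not given in the sources used here, so reads of antisense partners cannot be separated. Library pairs within a group differed by more than sampling noise (chi-square per degree of freedom 8.27 to 48.9).

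The tests were run in edgeR 4.0.16 under R 4.3.3 (filterByExpr with the group, TMM, glmQLFit, glmQLFTest, no covariate) over the whole table, with Benjamini-Hochberg adjustment over 18593 genes and 0.05 as the threshold. The standard error was taken from the fold change and the F statistic. The calculation was tested on simulated counts. Single ratios were compared by exact two-sided permutation tests (scipy 1.17.1). Alternatives were RLE, upper quartile, and total count normalization, other filters, DESeq2 1.42.0, limma-voom (limma 3.58.1), a replicate block, and leaving out each library. Ratios to marker counts, ratios between genes, and refits of *Ifng*, *Il6*, and *Il10* without a filter, were added after the data were seen.

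The cytokines, the 6 pathway lists, and the 11 marker lists were chosen with earlier results of these data known. Named genes were all cytokines, receptors, and inhibitors, the 4 smallest p-values of each other pathway list, and for each cytokine with a mean of at least 1 CPM the 2 genes with the highest r (prior count 2). A gene that this rule would name is not reported here. *Il36a*, *Il36b*, and *Il36g* were read under their older symbols. Locations and exon lengths are those of GENCODE M21 (GRCm38), and promoters are those of RefSeq (GRCm38.p6). Floors and counting intervals cover counting error only.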

Additional observations from a re-analysis of the deposited data

How the results depend on the processing

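Each of the 7 cytokines tested kept its direction in every alternative that gave it a value. The number of cytokines called higher, 5, was 4 in limma-voom and with a minimum mean of 1 CPM, and 6 without a filter or at an unadjusted p. It was 5 with RLE, upper quartile, or total counts and in DESeq2. Of all genes, 7.64% were higher in limma-voom, 6.87% without a filter, and 19.2% at an unadjusted p. With total counts 12.2% were higher, in DESeq2 12.9%, and in the main fit 10.1%. Shares for the other settings of this comparison are not given here. Leaving out one library gave 0 to 5 higher and 0 lower cytokines, 0 to 12 higher and 0 lower receptors (11 and 0 with all libraries), and 0 to 58 higher and 0 to 1 lower genes over the 6 pathway lists (46 and 2). Without AAV5-*Gfp* replicate 1, 2, or 3, the pathway lists held 5, 0, and 0 higher genes, and without AAV5-*V1+V2* replicate 2 they held 25. Of all genes, 1.35%, 0.0634%, 0.0792%, and 5.4% were higher in these 4 fits. By list, edgeR called 4 inhibitors and decoys, 5 signal transducers, 12 response genes, and 1 fibroblast marker higher and 1 sensory neuron marker lower, where DESeq2 called 7, 10, 13, 3, and 4 and limma-voom called 3, 1, 6, 1, and 1. The number of lower pathway genes was 0 with total counts only and 1 without a filter, where the cause was not tested. Without AAV5-*V1+V2* replicate 1, 2, or 3, the pathway lists held 44, 25, and 58 higher genes. The share of all genes that were higher moved in the same order, at 9.85%, 5.4%, and 13.1%. The cause of the lost calls in the fits with a library left out was not tested.

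Whether replicate numbers 1, 2, and 3 mark a pairing between the groups is not known. Deviations of same-numbered libraries correlated weakly, at 0.0360, 0.0658, and 0.107. Those of differently numbered libraries correlated at -0.104 to 0.0433. AAV5-*V1+V2* replicate 1 correlated best with AAV5-*Gfp* replicate 2, and every other library correlated best with its own number. With the replicate number as a block, edgeR called 5 cytokines and 11 receptors higher and 0 of either lower, and 58 pathway genes higher and 2 lower, where 11.4% of all genes were higher against 10.1% without the block. Depth limits *Il6*, *Il10*, and *Ifng* most, with at most 25 counts in any library.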

Other observations

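Some rows beside the cytokines were counted too low or too evenly to enter a comparison. *Il1bos*, an antisense transcript that overlaps *Il1b*, had 4, 2, and 3 counts with AAV5-*Gfp* and 2, 1, and 5 with AAV5-*V1+V2*. *Gm14023*, on the strand opposite to *Il1a*, had 23, 14, and 15 counts against 25, 28, and 15, more than *Il1a* itself in the AAV5-*Gfp* libraries. *Bco2*, which overlaps *Il18*, had 23, 28, and 14 counts against 30, 35, and 18. Of the related cytokines, *Il22* and *Ifnb1*, were at 0 counts in all 6 libraries, which allows up to 3 counts in each.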
